A study of Mus musculus with 12 samples.

Results

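The genes of cholesterol synthesis, uptake and export were described in RNA from the subcortical white matter of mice that carried transgenes for altered ErbB receptors under a driver of the oligodendrocyte lineage, and of their littermates. The set was a list of 37 gene symbols, each read from the locus of the deposited table that carried the symbol, and from the locus with the highest mean where several did, out of 33864 loci in all. It held 18 synthesis enzymes, 4 genes that control the SREBP transcription factors, and 15 genes of uptake, intracellular transport, storage and export. All 37 genes were found and all 37 reached the level needed for testing. The loci of Fdps, Tm7sf2 and Nr1h3 joined the named gene to neighbouring genes, so the values of these 3 are uncertain.

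RNA was sequenced from 12 mice, 1 library per mouse, with 3 mice in each of 4 groups. Sox10-tTA;TRE-dnEGFR mutants carried a tetracycline transactivator, driven by the oligodendrocyte lineage gene Sox10, and a tetracycline-responsive gene for dnEGFR, an epidermal growth factor receptor that acts as a dominant negative. Their controls were TRE-dnEGFR littermates, which carried the responder alone. Doxycycline was given to both from postnatal day 21, and tissue was taken at day 35, when treatment ended. Sox10-tTA;TRE-ErbB2V664E mutants carried the same transactivator with a responder for ErbB2V664E, an activated form of the receptor ErbB2, and TRE-ErbB2V664E littermates were their controls. Here treatment also began at day 21, and it ended at day 30, the day of sampling. No group carried the transactivator alone, and the sources used here do not say whether doxycycline turned the transgenes on or off. Levels are FPKM, fragments scaled to the length of the transcript and the depth of the library, so they may be compared between genes of different length.

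Cholesterol is the main sterol of myelin, the membrane that oligodendrocytes wrap around axons. Because the blood-brain barrier keeps out lipoproteins of the blood, the brain makes its own cholesterol, in oligodendrocytes for myelin and in astrocytes for export on apolipoprotein E particles. The enzymes build mevalonate from acetyl-CoA, join isoprene units into squalene, close the rings to lanosterol and then trim lanosterol to cholesterol. SREBP-2, encoded by Srebf2, is held in the endoplasmic reticulum by Insig proteins and their partner Scap while sterols are plentiful, and is released to switch on the synthesis genes when sterols are scarce. Liver X receptors, encoded by Nr1h2 and Nr1h3, sense oxidised sterols and switch on exporters such as Abca1 and Abcg1.

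Promoter windows of 6 members are shown because the values below turn on these genes and because SREBP is known to bind promoters of this pathway together with the CCAAT-binding factor NF-Y. The windows run from 250 bases before the start of the gene to 50 after it, 5′ to 3′ on the strand of the gene, in RefSeq on build GRCm38.p6. Capitals mark the letters CCAAT or, on the other strand, ATTGG, and the SREBP motif (in Hmgcs1) or only its shorter form (in Srebf2 and Apoe), both described next.
Idi1, chr13:8885356-8885655, plus strand: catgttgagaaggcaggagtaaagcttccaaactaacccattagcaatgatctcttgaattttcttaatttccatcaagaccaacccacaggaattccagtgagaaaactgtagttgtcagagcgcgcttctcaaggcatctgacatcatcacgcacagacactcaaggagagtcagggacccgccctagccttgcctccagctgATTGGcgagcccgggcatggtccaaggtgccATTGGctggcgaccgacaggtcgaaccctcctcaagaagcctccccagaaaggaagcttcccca
Nsdhl, chrX:72918271-72918570, plus strand: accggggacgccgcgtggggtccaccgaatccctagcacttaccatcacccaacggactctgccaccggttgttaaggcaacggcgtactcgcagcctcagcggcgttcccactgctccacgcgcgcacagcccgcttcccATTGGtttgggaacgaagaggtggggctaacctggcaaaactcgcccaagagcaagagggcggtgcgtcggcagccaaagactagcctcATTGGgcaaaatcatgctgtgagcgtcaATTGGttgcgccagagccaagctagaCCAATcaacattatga
Mvk, chr5:114444019-114444318, plus strand: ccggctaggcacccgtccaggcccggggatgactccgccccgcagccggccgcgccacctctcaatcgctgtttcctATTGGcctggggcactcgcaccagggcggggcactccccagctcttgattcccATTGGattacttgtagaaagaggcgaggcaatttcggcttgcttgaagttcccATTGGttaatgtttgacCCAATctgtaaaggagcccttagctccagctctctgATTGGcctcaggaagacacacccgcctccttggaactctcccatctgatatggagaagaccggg
Hmgcs1, chr13:119690101-119690400, plus strand: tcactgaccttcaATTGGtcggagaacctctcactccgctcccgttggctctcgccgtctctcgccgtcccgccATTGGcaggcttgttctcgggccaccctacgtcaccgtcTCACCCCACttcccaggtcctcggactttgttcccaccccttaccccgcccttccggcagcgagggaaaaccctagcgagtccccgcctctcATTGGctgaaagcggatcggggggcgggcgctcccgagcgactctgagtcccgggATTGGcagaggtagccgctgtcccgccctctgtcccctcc
Srebf2, chr15:82147019-82147318, plus strand: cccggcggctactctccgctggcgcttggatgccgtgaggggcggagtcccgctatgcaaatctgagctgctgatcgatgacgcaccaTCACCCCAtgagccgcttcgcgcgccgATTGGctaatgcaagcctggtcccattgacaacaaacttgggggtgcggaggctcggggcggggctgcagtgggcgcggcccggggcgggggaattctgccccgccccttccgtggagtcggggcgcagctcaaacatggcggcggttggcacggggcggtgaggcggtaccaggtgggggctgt
Apoe, chr7:19699139-19699438, minus strand, the first of 3 listed windows: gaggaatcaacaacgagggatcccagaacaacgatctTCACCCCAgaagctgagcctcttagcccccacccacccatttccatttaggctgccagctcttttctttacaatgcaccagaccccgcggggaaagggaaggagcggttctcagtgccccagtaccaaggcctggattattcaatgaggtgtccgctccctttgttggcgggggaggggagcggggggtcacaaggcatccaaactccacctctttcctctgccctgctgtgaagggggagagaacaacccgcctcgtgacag

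Windows were available for 29 of the 37 members. CCAAT stood on either strand in 14 of the 15 synthesis enzymes matched (93.3%), among them Idi1 with 2 copies, Nsdhl and Hmgcs1 with 4 each and Mvk with 5. It stood in 5 of the 10 genes matched for uptake, transport, storage and export, and in 41.1% of all 27025 genes with a window. Apoe, which encodes the main apolipoprotein of the brain, held none in any of its 3 windows. The 9-letter SREBP motif TCACNCCAC, searched on both strands, occurred in Hmgcs1 alone among the 29 members, 137 bases before the start, and in 1.44% of all genes. The motif less its last letter, TCACNCCA, which was chosen after the longer one had been counted, occurred in Hmgcs1, Msmo1, Srebf2 and Apoe, or 13.8% of the members matched, and in 4.97% of all genes. These are matches of letters in 300 bases, and no binding was measured.

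The members spanned a wide range of levels in each group. Apoe was the highest in all 4 groups, at 229 ± 28 FPKM in dnEGFR mutants, 214 ± 22.0 in dnEGFR controls, 276 ± 34.4 in ErbB2V664E mutants and 195 ± 10.4 in ErbB2V664E controls (SD, n = 3 each). Hmgcs1, the cytosolic synthase that makes the precursor of mevalonate, came next in dnEGFR mutants at 70.9 ± 24.3 FPKM, in dnEGFR controls at 68.6 ± 2.11 and in ErbB2V664E controls at 58.5 ± 16.1. In ErbB2V664E mutants Hmgcs1 averaged 27.2 ± 17 FPKM, below Cyp46a1 at 38.2 ± 2.14 and Lrp1 at 38.5 ± 1.51. Cyp46a1 encodes the neuronal hydroxylase through which much cholesterol leaves the brain, and Lrp1 a large receptor that takes up apolipoprotein E.

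Libraries were estimated to hold 16596890 to 24739627 fragments, so that 1 FPKM in a transcript of 2 kb stood for 33.2 to 49.5 fragments. The lowest estimate was that of ErbB2V664E mutant 1, where mutants 2 and 3 of its group had 20937447 and 21817008. ErbB2V664E mutant 1 stood apart from mutants 2 and 3 of its group: its summed red blood cell markers and its levels of most synthesis enzymes were above those of the others. What the changes were without mutant 1 is given in a paragraph of its own below. In bulk tissue, fewer cells of a type and less RNA per cell cannot be told apart.

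In ErbB2V664E mutants most synthesis enzymes had lower means than in their controls, and for most of them mutants 2 and 3 were lower than mutant 1. Each of the 3 mutants lay below all 3 controls for Mvk, Idi1, Fdft1, Lss, Msmo1, Nsdhl and Ebp, and the same was true of Srebf2 and Insig1. By limma on log2(FPKM + 1), with p-values adjusted by Benjamini and Hochberg over all 13803 loci tested, 0 of the 37 members were called at 0.05, where 0.275% of all loci were called. Before adjustment 13 members were lower at p under 0.05 (35.1%) and 2 were higher, against 6.24% and 5.9% of all loci. The groups did not overlap for 9 members that were lower and 2 that were higher, against 8.96% and 9.28% of all loci. On the log2 scale the median change was -0.15 for the 37 members, -0.47 for the 18 synthesis enzymes and 0.00 for all loci, and 15 of the 18 enzymes were negative, against 49% of all loci.

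**Figure D1:**
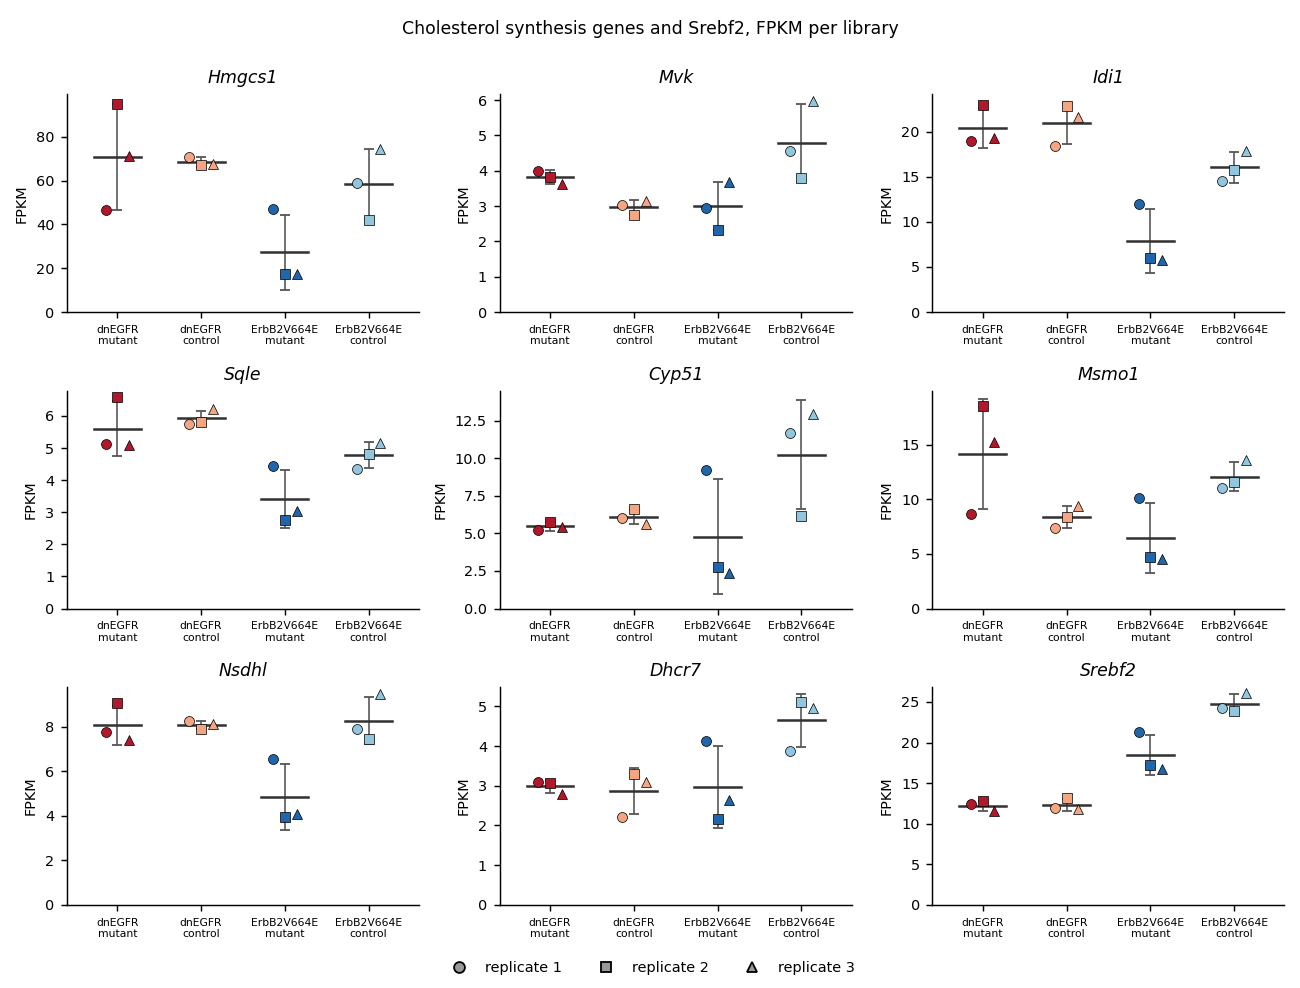
FPKM (y axis) of 8 synthesis enzymes and Srebf2 in each of the 12 libraries, by group along the x axis. Points are libraries, with a shape for each replicate number, long bars are group means and error bars the SD of n = 3. ErbB2V664E mutants 2 and 3 are the lowest pair of their line for Hmgcs1, at 17.4 and 17.3 FPKM, and for Idi1, at 5.99 and 5.73 FPKM.

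Among the enzymes that lead to squalene, Idi1, the isomerase that makes the second isoprene building block, measured 11.9, 5.99 and 5.73 FPKM in ErbB2V664E mutants 1 to 3, against 14.5, 15.7 and 17.9 in controls 1 to 3. All 3 mutants were below all 3 controls, mutant 1 by the least. Idi1 had the smallest p of the 37 members here, at a log2 change of -1.0 ± 0.22 (SE; 95% interval -1.5 to -0.51; adjusted p = 0.12 by limma). Hmgcs1 measured 46.9, 17.4 and 17.3 FPKM in the mutants and 59.1, 42.2 and 74.3 in controls. Mutants 2 and 3 were far below every control while mutant 1 lay above control 2, and the log2 change was -1.20 ± 0.38 (SE; adjusted p = 0.23 by limma).

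Mvk, the kinase that acts on mevalonate, measured 2.94, 2.33 and 3.69 FPKM in ErbB2V664E mutants and 4.56, 3.80 and 5.98 in controls. Its groups did not overlap, though mutant 3 and control 2 were close, and the log2 change was -0.53 (adjusted p = 0.189 by limma). Mvd, the decarboxylase that ends the mevalonate steps, averaged 4.52 ± 1.20 FPKM in mutants and 7.28 ± 1.95 in controls (SD, n = 3 each), with a log2 change of -0.58 and groups that overlapped. Fdft1, squalene synthase, measured 4.77, 4.48 and 4.38 FPKM in mutants and 4.77, 5.98 and 4.81 in controls. Its groups were separate only because mutant 1 lay below control 1 in digits beyond those printed, and its log2 change was -0.15. The remaining early enzymes were Acat2, the cytosolic thiolase, Pmvk, the next kinase after Mvk, and Fdps, which joins isoprene units. Their log2 changes were -0.06, 0.07 and 0.04, with 95% intervals of -0.34 to 0.23, -0.27 to 0.41 and -0.34 to 0.43.

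From squalene on, Nsdhl, the dehydrogenase that strips a carbon from methylated sterols, measured 6.56, 3.94 and 4.08 FPKM in ErbB2V664E mutants and 7.89, 7.44 and 9.47 in controls. All 3 mutants were below all 3 controls, and the log2 change was -0.68 ± 0.16 (SE; adjusted p = 0.134 by limma). Msmo1, the oxygenase that acts just before Nsdhl, measured 10.2, 4.72 and 4.49 FPKM in mutants and 11, 11.6 and 13.6 in controls. Mutant 1 again lay close under the lowest control, and the log2 change was -0.89 (adjusted p = 0.256 by limma). Cyp51, the lanosterol demethylase, measured 9.21, 2.75 and 2.38 FPKM in mutants and 11.7, 6.15 and 12.9 in controls. Control 2 was itself low, mutant 1 exceeded it, and the log2 change of -1.10 had a 95% interval of -1.94 to -0.25.

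Sqle, the epoxidase that opens the sterol branch, measured 4.44, 2.76 and 3.05 FPKM in ErbB2V664E mutants and 4.36, 4.81 and 5.17 in controls, so mutant 1 sat among the controls. Dhcr7, the reductase of the final step, measured 4.14, 2.15 and 2.65 FPKM in mutants and 3.88, 5.10 and 4.97 in controls, and here too mutant 1 sat among the controls. The log2 changes were -0.40 for Sqle and -0.53 for Dhcr7. Ebp, a sterol isomerase, averaged 2.03 ± 0.31 FPKM in mutants and 3.59 ± 1.29 in controls (SD, n = 3 each) without overlap, and control 3 at 5.08 FPKM was well above the other controls. Lss, the cyclase that makes lanosterol, had a log2 change of -0.21 without overlap. Hsd17b7, a keto-sterol reductase, Sc5d, a sterol desaturase, and Tm7sf2, a sterol reductase, overlapped between groups, with log2 changes of -0.28, -0.10 and 0.05.

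Srebf2 measured 21.3, 17.2 and 16.8 FPKM in ErbB2V664E mutants, against 24.2, 23.9 and 26.1 in controls. All 3 mutants were below all 3 controls, and the log2 change was -0.41 ± 0.10 (SE; adjusted p = 0.146 by limma). Insig1, itself a target of SREBP-2, measured 15.9, 14.2 and 11.9 FPKM in mutants and 16.1, 16.4 and 16.6 in controls, with mutant 1 just under the lowest control. Scap measured 8.84, 9.69 and 9.66 FPKM in mutants and 9.16, 9.36 and 8.49 in controls, which overlapped, with a 95% interval of the log2 change from -0.11 to 0.22. Insig2 varied most in the controls, where control 3 was at 1.82 FPKM and the other two at 6.02 and 6.46.

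The number of genes below every control showed the same split among the ErbB2V664E mutants. Of the 18 synthesis enzymes, 8 were below all 3 controls in mutant 1, 14 in mutant 2 and 13 in mutant 3, or 44.4%, 77.8% and 72.2%. Over all tested loci these shares were 25.3%, 28.8% and 28.3%. The median deviation of the enzymes from the control mean was -0.11, -0.57 and -0.44 on the log2 scale in mutants 1 to 3. The coefficient of variation between mice had a median of 26.4% over the enzymes in mutants and 13.8% in controls, against 16.2% and 14.6% over all loci. In the dnEGFR line 38.9%, 16.7% and 38.9% of the enzymes were below all 3 controls in mutants 1 to 3. Over all tested loci the shares in that line were 27.9%, 21.3% and 25.5%.

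Without ErbB2V664E mutant 1, limma called 7 of the 37 members lower (18.9%) and 0 higher, where 0.985% of all loci were called lower and 0.913% higher. These were Idi1 at a log2 change of -1.31 (adjusted p = 0.0026), Nsdhl at -0.88, Cyp51 at -1.60, Srebf2 at -0.52, Hmgcs1 at -1.66, Dhcr7 at -0.73 and Sqle at -0.56. Their adjusted p-values lay between 0.0026 and 0.0496. The mutant arm then held 2 mice, which were assumed to vary like the other groups. Mutant 1 was also the mutant with the highest levels of these 7 genes, so this count is not independent of the values it describes. Leaving out mutant 2, mutant 3 or any of the controls in turn gave 0 members called. With litter as a block and all libraries kept, 0 members were called, where 0.0507% of all loci were called.

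Without mutant 1 the median log2 change was -0.21 for the 37 members, -0.55 for the synthesis enzymes and -0.13 for the 15 genes of uptake, transport, storage and export. Msmo1 was at -1.22 (adjusted p = 0.0507 by limma) and Apoe at 0.59 (adjusted p = 0.057), just outside the threshold. Mvk was at -0.53, Mvd at -0.75, Ebp at -0.62, Vldlr at -0.63, Soat1 at -0.46 and Nr1h2 at 0.27, and none of these was called either. Hsd17b7 was at -0.45, Sc5d at -0.35, Npc1 at -0.21, Npc2 at -0.48 and Stard4 at -0.64, all further from 0 than with mutant 1 and not called.

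**Figure D2:**
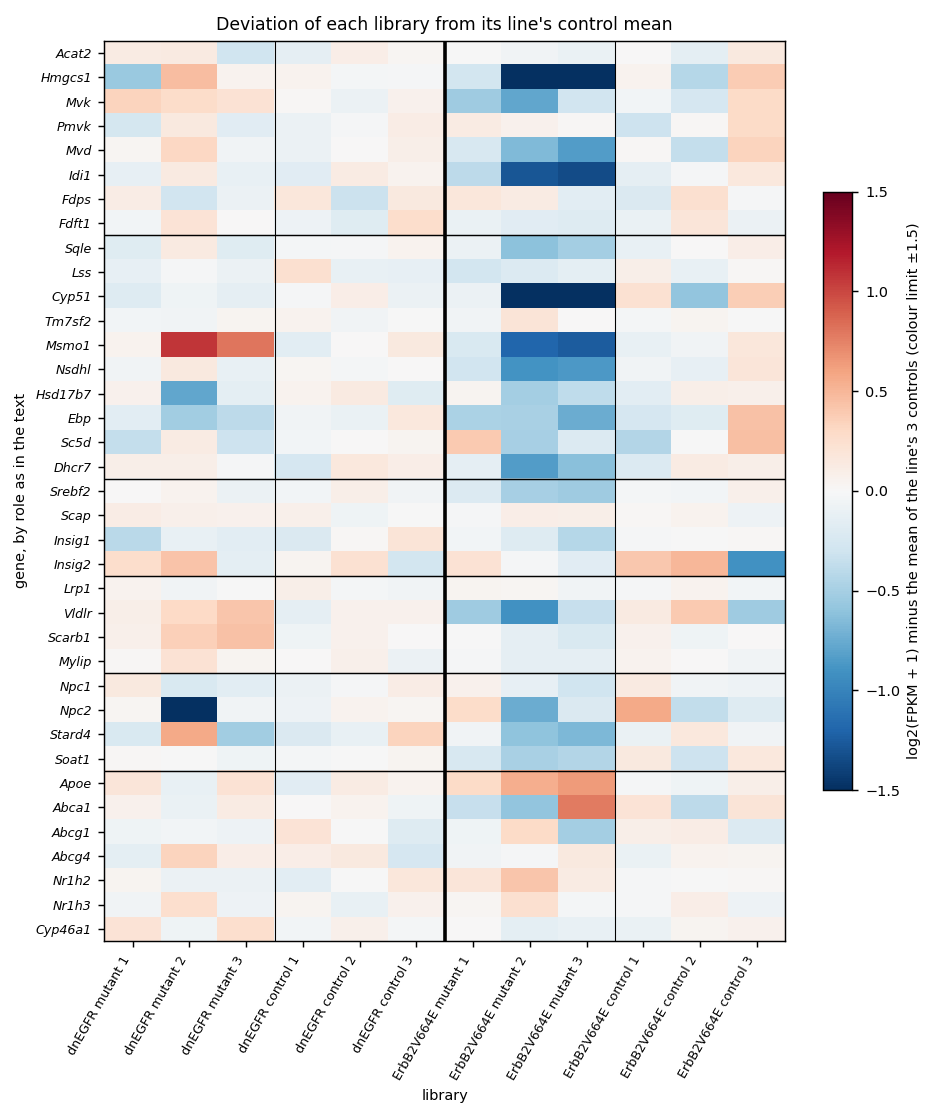
Deviation of log2(FPKM + 1) from the control mean of the same line, as colour, for the 37 genes (rows, grouped by role) in the 12 libraries (columns). The colour scale ends at 1.5 log2 units in either direction, and the synthesis rows are darkest below 0 in ErbB2V664E mutants 2 and 3, whose enzyme medians were -0.57 and -0.44.

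Several cell type markers moved with this result. Summed markers of mature oligodendrocytes (7 genes, including Mbp and Mog) were 933, 584 and 823 FPKM in ErbB2V664E mutants 1 to 3 and 1305, 873 and 1533 in controls. In these sums mutants 2 and 3 were below every control and mutant 1 lay above control 2 alone. Cldn11 was uneven within the line, at 142, 19.2 and 139 FPKM in mutants and 224, 36.2 and 243 in controls. For Mbp, Mog, Mag and Opalin every mutant was below every control, while Mobp, Cnp and Cldn11 overlapped. Microglial markers (6 genes) summed to 66.5, 37 and 39.8 FPKM in mutants and 77.0, 63.5 and 85.5 in controls, and astrocyte markers (6 genes) to 161, 161 and 163 in mutants and 187, 173 and 196 in controls. Choroid plexus markers (5 genes), which mark a tissue of the ventricles beside the white matter, summed to 636, 12 and 97 FPKM in mutants and 253, 565 and 245 in controls. This list was uneven between libraries, and so were red blood cell markers (5 genes), at 118, 32.5 and 22.1 FPKM in mutants and 143, 95.5 and 214 in controls. The sum of neuronal markers (6 genes) ran the other way, at 485, 593 and 523 FPKM in mutants and 419, 471 and 478 in controls. Among these 6 genes Snap25 alone was higher in every mutant, at 219, 277 and 234 FPKM against 170, 208 and 190 in controls. Map2 tended lower, at 13.8, 8.12 and 13.1 FPKM in mutants against 28.7 and 18.5 in controls 1 and 3, and overlapped only through control 2. Syt1, Rbfox3, Slc17a7 and Gad1 overlapped, so the sum does not show a rise of neuronal markers as a class. Endothelial markers (5 genes) summed to 38.0, 39.0 and 38.3 FPKM in mutants and 31.9, 34.8 and 24.8 in controls. Among these genes Cldn5 alone was higher in every mutant, at 13.0, 14.3 and 14.8 FPKM against 10.8, 11.4 and 0 in controls. Pecam1, Flt1, Cdh5 and Slco1a4 overlapped. Oligodendrocyte precursor markers (4 genes) summed to 11.6, 12.2 and 9.55 FPKM in mutants and 13.2, 13.1 and 18.0 in controls, and those of striatal projection neurons (6 genes) to 176, 164 and 227 in mutants and 255, 168 and 146 in controls. Cldn5 was listed at 0 in dnEGFR mutant 2, dnEGFR controls 1 and 3 and ErbB2V664E control 3. No marker of the other lists was at exactly 0 in any library, but Gja1, an astrocyte marker, was uneven. It measured 14.3 FPKM in dnEGFR mutant 1, 18.5 in ErbB2V664E mutant 3 and 0.0137 to 0.215 in the rest, and the astrocyte sums include it. The part of these cells in the values of the synthesis genes was not tested.

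The genes of uptake, transport, storage and export lay on both sides of 0 in ErbB2V664E mutants. Over these 15 genes the median log2 change was -0.09, with 10 negative (66.7%) and 5 positive, where 49% of all loci were negative. Before adjustment 2 were lower and 2 higher at p under 0.05 by limma (13.3% each), against 6.24% and 5.9% of all loci. Apoe measured 238, 285 and 305 FPKM in mutants, against 193, 187 and 207 in controls. Every mutant was above every control, and the log2 change was 0.49 ± 0.13 (SE; adjusted p = 0.161 by limma). Nr1h2, the widely expressed liver X receptor, measured 10.0, 11.9 and 9.60 FPKM in mutants and 8.62, 8.70 and 8.80 in controls. Its groups did not overlap either, at a log2 change of 0.24 (adjusted p = 0.403 by limma).

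The other exporters and receptors overlapped between ErbB2V664E mutants and controls. Lrp1 had a log2 change of 0.01 with a 95% interval of -0.17 to 0.18, the Cyp46a1 change was -0.09, and the sterol exporters Abcg1 and Abcg4 were at -0.10 and 0.03. Abca1, which loads cholesterol onto apolipoproteins, was uneven, at 1.65, 1.22 and 4.78 FPKM in mutants and 2.87, 1.55 and 2.82 in controls. Vldlr, a receptor for apolipoprotein E, measured 3.21, 2.25 and 3.77 FPKM in mutants and 5.66, 6.99 and 3.21 in controls. The groups overlapped through control 3, and the log2 change was -0.59 (adjusted p = 0.321 by limma). Soat1, which esterifies cholesterol for storage, measured 2.59, 2.02 and 2.12 FPKM in mutants and 3.69, 2.42 and 3.71 in controls, with only control 2 inside the range of the mutants. The lysosomal carriers Npc1 and Npc2 and the sterol carrier Stard4 had log2 changes of -0.12, -0.23 and -0.44, each with an interval that included 0.

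**Figure D3:**
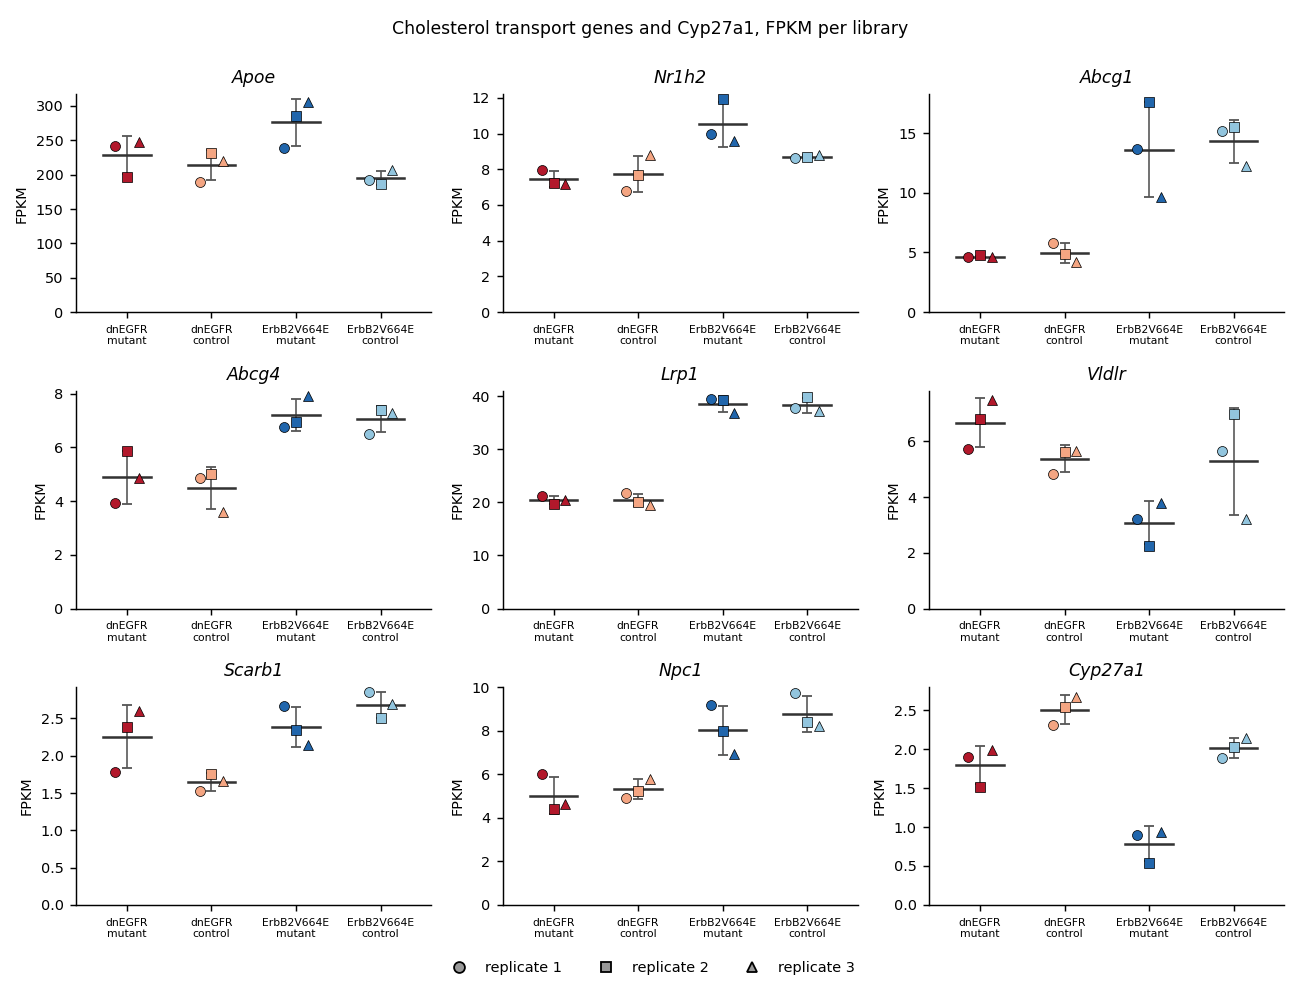
FPKM (y axis) of 8 genes of export, uptake and transport and of Cyp27a1 in each of the 12 libraries, by group along the x axis. Points are libraries, with a shape for each replicate number, long bars are group means and error bars the SD of n = 3. The Apoe points of ErbB2V664E mutants lie between 238 and 305 FPKM, above controls at 187 to 207, while Lrp1 and Abcg1 differ between the lines more than between mutants and controls.

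In dnEGFR mutants the changes of the pathway lay on both sides of 0. By limma 0 of 37 members were called after adjustment, where 0.0942% of all loci were called. Before adjustment 1 member, Scarb1, passed p under 0.05 (2.7%), against 5.69% of all loci. The median log2 change was -0.01 for the members and -0.03 for the synthesis enzymes, of which 13 of 18 were negative, against 48.1% of all loci. The groups did not overlap for Ebp, which was lower, and for Mvk, Vldlr and Scarb1, which were higher, and such separation held for 4.57% of all loci in the lower and 5.58% in the higher direction.

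Scarb1, the receptor that takes up cholesterol esters from lipoproteins, measured 1.78, 2.39 and 2.60 FPKM in dnEGFR mutants and 1.53, 1.76 and 1.66 in controls. Mutant 1 was only just above the highest control, and the log2 change was 0.29 ± 0.11 (SE; adjusted p = 0.8 by limma). Mvk measured 4.01, 3.82 and 3.62 FPKM in mutants and 3.03, 2.75 and 3.14 in controls, a separation with a small spread within each group, and the log2 change was 0.28 (adjusted p = 0.927 by limma). Vldlr measured 5.73, 6.82 and 7.47 FPKM in mutants and 4.81, 5.63 and 5.67 in controls, with mutant 1 only just above the controls, at a log2 change of 0.27. Vldlr and Scarb1 are both uptake receptors, and Mvk is an early synthesis enzyme. Msmo1 measured 8.69, 18.5 and 15.2 FPKM in mutants and 7.34, 8.38 and 9.35 in controls. Mutants 2 and 3 were high and mutant 1 lay within the controls, at a log2 change of 0.64 (adjusted p = 0.894 by limma).

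Ebp averaged 3.68 ± 0.62 FPKM in dnEGFR mutants and 4.98 ± 0.60 in controls (SD, n = 3 each), at a log2 change of -0.36 (adjusted p = 0.918 by limma). Hmgcs1 measured 46.5, 95 and 71.3 FPKM in mutants and 71.0, 67.0 and 67.7 in controls, so the mutants spread to both sides of tightly grouped controls. Srebf2 measured 12.4, 12.8 and 11.5 FPKM in mutants and 11.9, 13.2 and 11.9 in controls, which overlapped. Its log2 change of -0.01 had a 95% interval of -0.24 to 0.22. Choroid plexus markers also varied in this line, at 401, 699 and 132 FPKM in mutants and 19.6, 711 and 617 in controls, and markers of striatal projection neurons summed to 189, 106 and 292 FPKM in mutants and 93.8, 103 and 88.1 in controls. Oligodendrocyte precursor markers summed to 28.4, 24.8 and 10.2 FPKM in mutants and 11.4, 11.4 and 10.4 in controls. The high sums of mutants 1 and 2 came from Gpr17 alone. It measured 17.2, 15.1 and 0.62 FPKM in mutants and 0.68, 0.69 and 0.73 in controls. The other precursor markers, Pdgfra, Cspg4 and Vcan, overlapped between the groups, with Pdgfra at 6.78, 6.43 and 5.38 FPKM in mutants and 7.17, 6.77 and 6.72 in controls. Red blood cell markers summed to 116, 279 and 243 FPKM in mutants and 149, 126 and 155 in controls, with mutants 2 and 3 above every control. Mature oligodendrocyte markers overlapped, at 949, 766 and 776 FPKM in mutants and 786, 770 and 985 in controls, and so did those of astrocytes, at 172, 137 and 121 in mutants and 122, 152 and 164 in controls. Microglial markers summed to 97.6, 66.5 and 92.6 FPKM in mutants and 82.9, 80.6 and 77.7 in controls, neuronal markers to 282, 510.0 and 412 in mutants and 547, 424 and 496 in controls, and endothelial markers to 41.4, 21 and 38.3 in mutants and 22.4, 39.8 and 23.4 in controls, all of which overlapped. Their part in the values above was not tested.

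**Figure D4:**
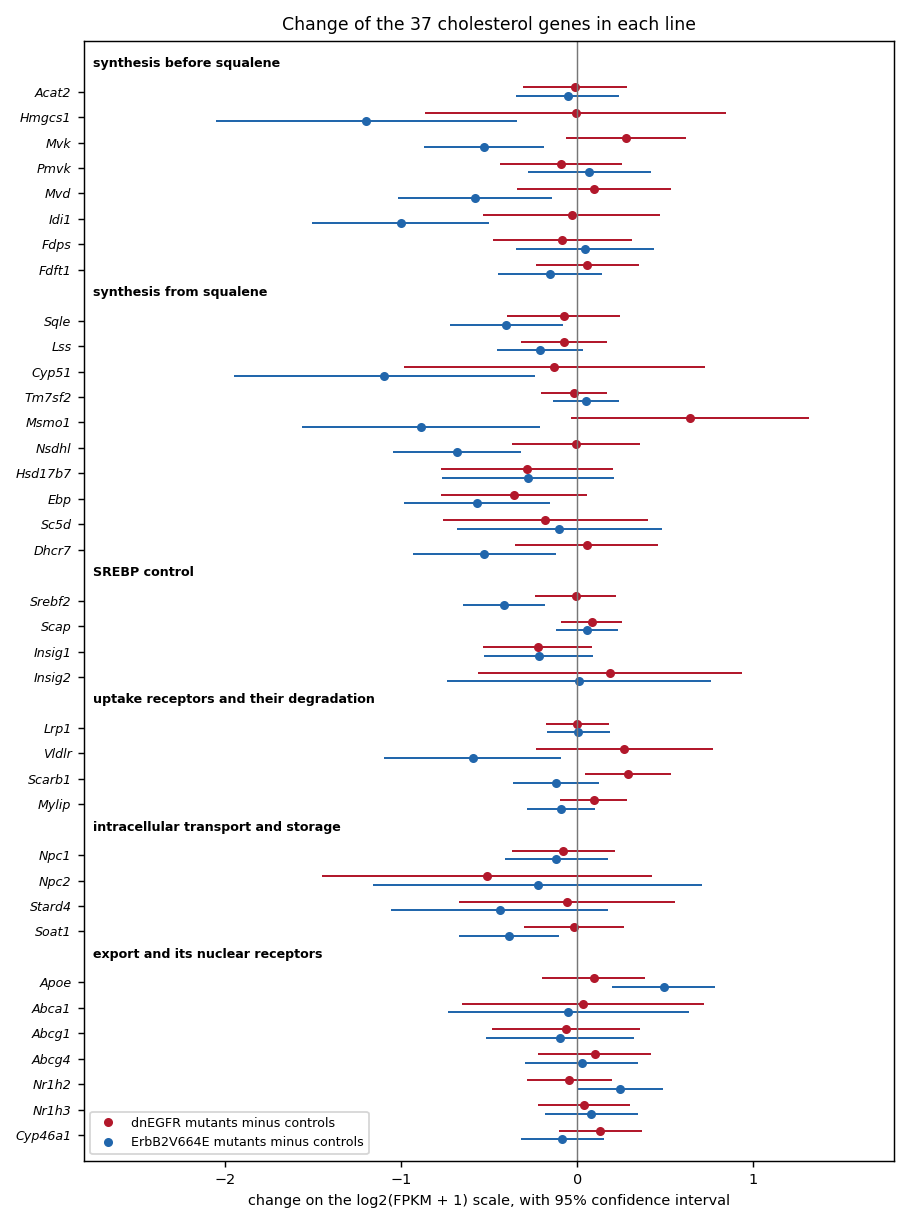
Log2 change of FPKM + 1 (x axis), mutants minus controls, for the 37 genes (y axis, grouped by role) in the dnEGFR and ErbB2V664E lines. Points are limma estimates and bars their 95% intervals. Most synthesis enzymes lie left of 0 in the ErbB2V664E line, with a median of -0.47, and around 0 in the dnEGFR line, with a median of -0.03.

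The difference between the lines was tested as the ErbB2V664E change minus the dnEGFR change. By limma 0 of 37 members were called, where 0.116% of all loci were called. Before adjustment 9 members passed p under 0.05, all with a negative difference (24.3%), and 0 with a positive one, against 4.77% and 4.25% of all loci. These were Mvk, Mvd, Idi1, Msmo1, Nsdhl, Dhcr7, Srebf2, Vldlr and Scarb1. Mvk had the smallest p, with a difference of -0.81 ± 0.21 on the log2 scale (SE; adjusted p = 0.352), and Msmo1 had the largest difference of the 37, at -1.53 (adjusted p = 0.37). Mvk was the only one of the 9 whose mutants were all above controls in the dnEGFR line and all below them in the ErbB2V664E line.

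The median difference over the members was -0.18 on the log2 scale, against 0.00 over all loci, and it moved to -0.09 without dnEGFR control 3. Without ErbB2V664E mutant 1, Idi1 was called at -1.27 (adjusted p = 0.0257 by limma), where 0.304% of all loci were called. The lines differed in age and in length of doxycycline treatment as well as in transgene, and these cannot be told apart.

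Levels of the members also differed between the control groups, where age, line, litter and doxycycline time differ together. By limma 13 of the 37 members (35.1%) were called between dnEGFR controls at day 35 and ErbB2V664E controls at day 30, where 20% of all loci were called. Of these, 12 were lower in dnEGFR controls and 1, Fdft1, was higher, against 10.9% and 9.12% of all loci. Lrp1 measured 21.7, 20.0 and 19.6 FPKM in dnEGFR controls and 37.8, 40.0 and 37.3 in ErbB2V664E controls, groups far apart and each tight, with a log2 change of -0.88 (adjusted p = 0.000113). Srebf2 measured 11.9, 13.2 and 11.9 FPKM in dnEGFR controls and 24.2, 23.9 and 26.1 in ErbB2V664E controls, and its log2 change was -0.95 (adjusted p = 0.000337). Abcg1 measured 5.78, 4.88 and 4.17 FPKM in dnEGFR controls and 15.2, 15.5 and 12.3 in ErbB2V664E controls, the largest log2 change of the 13 at -1.37 (adjusted p = 0.00107).

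Scap, Npc1 and Scarb1 were likewise lower in dnEGFR controls, at log2 changes of -0.56, -0.63 and -0.47. Scap, Npc1, Scarb1, Lrp1, Srebf2 and Abcg1 were called in every alternative tried for this comparison, with adjusted p-values up to 0.0447. The other 7 called genes lost their call in at least 1 alternative. They were Mvk (-0.52), Lss (-0.44), Sc5d (-0.88), Stard4 (-0.96), Abcg4 (-0.56) and Mylip, a ligase that marks lipoprotein receptors for degradation (-0.30), all lower in dnEGFR controls, and Fdft1 (0.42), higher. Leaving out 1 control library at a time left 7 to 9 members called, where 1810 to 2152 of all 13803 loci were called. The members called were 7 without dnEGFR control 3 or ErbB2V664E control 3 and 8 without ErbB2V664E control 1. By contrast the synthesis enzymes were on both sides, with 11 negative and 7 positive and a median log2 change of -0.02, where 51.5% of all loci were negative.

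In ascending order of the group means, Srebf2 stood at 12.2 ± 0.62 FPKM in dnEGFR mutants, 12.3 ± 0.74 in dnEGFR controls, 18.4 ± 2.47 in ErbB2V664E mutants and 24.8 ± 1.18 in ErbB2V664E controls (SD, n = 3 each). The dnEGFR groups lay within their spread of each other, and both ErbB2V664E groups lay above all dnEGFR libraries. Abcg1 stood at 13.6 ± 3.96 FPKM in ErbB2V664E mutants and 14.3 ± 1.8 in ErbB2V664E controls, and at 4.66 ± 0.08 in dnEGFR mutants and 4.94 ± 0.81 in dnEGFR controls, within the spread of each pair.

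Beyond the 37 members, 30 other sterol genes were listed, of which 29 were found and 26 tested. In ErbB2V664E mutants their median log2 change was -0.05, and 1 was called by limma (3.85%), against 0.275% of all loci. It was Cyp27a1, a mitochondrial hydroxylase that turns cholesterol into an oxysterol, which measured 0.899, 0.537 and 0.932 FPKM in mutants and 1.88, 2.03 and 2.14 in controls. All 3 mutants were well below all 3 controls, and the log2 change was -0.76 ± 0.11 (SE; adjusted p = 0.0248). With a pseudocount of 0.1 FPKM in place of 1 the log2 change was -1.28 (adjusted p = 0.0361 by limma). The call was lost with the line fitted alone (adjusted p = 0.174), with litter as a block (0.144), without mutant 2 (0.069), and without control 1, 2 or 3 (0.0718, 0.0743 and 0.0911). Without mutant 1 it was kept, at a log2 change of -0.81 (adjusted p = 0.0168).

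In dnEGFR mutants Cyp27a1 measured 1.90, 1.52 and 1.99 FPKM, against 2.31, 2.55 and 2.67 in controls. Again every mutant was below every control, with a log2 change of -0.33 (adjusted p = 0.735 by limma). The next smallest p-values in ErbB2V664E belonged to Srebf1, Nceh1 and Lcat, and none of these was called. Srebf1, which encodes the SREBP better known for fatty acid synthesis, measured 10.6, 13.8 and 10.5 FPKM in mutants and 9.09, 8.36 and 5.90 in controls, the opposite side of 0 from Srebf2, at a log2 change of 0.53 (adjusted p = 0.195). Nceh1, a cholesterol ester hydrolase, had 2 loci and was read from the one with the higher mean, and its loci were not summed in any alternative. That locus measured 2.54, 18.1 and 19.0 FPKM in mutants and 3.40, 3.74 and 2.51 in controls, so mutants 2 and 3 were high and mutant 1 was not. Its log2 change of 1.41 did not pass (adjusted p = 0.341 by limma). Without mutant 1 the change was 2.23 (adjusted p = 0.00157 by limma). That fit dropped the only mutant that was not high and kept 2, so its p-value is not independent of the values it describes. In every other alternative Nceh1 was not called, with adjusted p-values from 0.341 to 0.687. Lcat, which esterifies cholesterol on lipoproteins and was read from a locus joined to a neighbour, had a log2 change of -0.31 (adjusted p = 0.355).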

How the data were processed

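Per the labels' protocols, polyadenylated RNA from 12 mice was fragmented, primed at random and read from both ends on an Illumina HiSeq. No strand-keeping step is named, so antisense overlaps cannot be resolved. The unit of the deposited values is FPKM, made by the authors with StringTie, as the design text states. HISAT and StringTie are named, per the submitters' processing notes, without versions. Their options, the build and the annotation were not given in the sources used here. Depth was estimated from the spacing of low values in loci with 1 transcript, using GENCODE M21 lengths.

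The test was limma 3.58.1 (R 4.3.3) on log2(FPKM + 1), with 1 mean per group over all 12 libraries, a variance trend, and 8 residual and 2.03 prior degrees of freedom. Fold changes on this scale understate the change of low genes. Loci with at least 1 FPKM in at least 3 libraries entered the test, and p-values, two-sided, were adjusted over these 13803 loci (Benjamini and Hochberg) at a threshold of 0.05. The script was tested on simulated data. Python 3.11.15 with numpy 2.4.6, pandas 2.3.3 and matplotlib 3.10.9 made the tables and figures.

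The labels name for each mutant its littermate control, so 6 litter numbers pair the libraries. Deviations from the group means correlated within these pairs at 0.0162, 0.0089, 0.0326, -0.0036, 0.0099 and -0.0253, and litter was a block in an alternative fit. No columns were identical. The members and lists were chosen with earlier results of these data known, so lists are described by counts and medians without a test. All 37 members were named by role, with other sterol genes named where called or among the 4 with the smallest p in ErbB2V664E. Alternatives changed the pseudocount, filter, scaling, libraries fitted and litter block, and left out each library in turn. Another alternative summed the loci of a symbol, for the members only. One of the listed oligodendrocyte markers is not reported here and was left out of the sum for that list.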

Additional observations from a re-analysis of the deposited data

Results flagged for a closer look

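Mvk, the mevalonate kinase, lay on opposite sides of its controls in the lines. Every dnEGFR mutant was above every dnEGFR control, and every ErbB2V664E mutant was below every ErbB2V664E control. The gene was found by looking through the members and the other sterol genes for such opposed separation. Over all loci, 5.58% were separated higher in dnEGFR and 8.96% lower in ErbB2V664E, and the share with both was not counted. Mvk was called in neither line (adjusted p = 0.927 in dnEGFR and 0.189 in ErbB2V664E, by limma). The difference of the changes, ErbB2V664E minus dnEGFR, was -0.81 on the log2 scale (adjusted p = 0.352 by limma), so it did not pass the threshold over all loci. Its FPKM was 3.81 ± 0.19 in dnEGFR mutants and 2.97 ± 0.20 in dnEGFR controls, and 2.99 ± 0.68 in ErbB2V664E mutants and 4.78 ± 1.11 in ErbB2V664E controls (SD, n = 3 each).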

How the results depend on the processing

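With the replicate block (litter), the loci called were 3 in dnEGFR, 7 in ErbB2V664E and 4 in the difference, against 13, 38 and 16 without it, and 0 members were called either way; with a line fitted alone they were 22 in dnEGFR and 23 in ErbB2V664E. The block changed the call of no member and of Cyp27a1 alone among the other sterol genes named. Leaving out 1 library at a time gave 17 to 36 loci in dnEGFR, 16 to 262 in ErbB2V664E, 15 to 42 in the difference and 1810 to 2152 between controls (2761 with all), and 0 to 7, 0 to 1 and 7 to 9 members called in ErbB2V664E, the difference and the controls. The 262 and 42 loci came without ErbB2V664E mutant 1, the 16 without ErbB2V664E mutant 2 and the 36 without dnEGFR mutant 3. Without the filter 8 members were called between controls, against 13 with it, where 20% of all tested loci were called. More loci enter the adjustment without the filter, so these counts of members are not directly comparable. The median difference over the members ranged from -0.224 to -0.0945, the last without dnEGFR control 3.

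Of the changes recomputed, which in dnEGFR did not cover all members, those below turned sign, each on leaving out 1 library. The log2 ranges in ErbB2V664E were -0.131 to 0.0197 for Acat2, -0.0848 to 0.213 for Pmvk, -0.0671 to 0.164 for Fdps, -0.0208 to 0.101 for Tm7sf2, -0.348 to 0.125 for Sc5d, -0.446 to 0.256 for Insig2, -0.0134 to 0.0379 for Lrp1, -0.478 to 0.0601 for Npc2, -0.469 to 0.222 for Abca1, -0.287 to 0.114 for Abcg1 and -0.0342 to 0.0634 for Abcg4. In dnEGFR they were -0.247 to 0.261 for Hmgcs1, -0.119 to 0.0288 for Idi1, -0.0835 to 0.0467 for Nsdhl, -0.00865 to 0.169 for Mvd, -0.0395 to 0.035 for Srebf2, -0.0338 to 0.00448 for Soat1, -0.0748 to 0.134 for Dhcr7 and -0.125 to 0.0394 for Nr1h2. The cause was not tested. With 3 mice a group, intervals of the changes were wide. A level of 1 FPKM rests on an estimated 33.2 to 49.5 fragments in a transcript of 2 kb, and on fewer in a shorter one.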
